A study of Mus musculus with 12 samples.

Results

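The genes described here are the mouse zinc finger genes with symbols from Zfp600 to Zfp999. They were chosen by name: protein-coding RefSeq genes of the GRCm38/mm10 assembly whose symbol is Zfp followed by a number in that range, with or without a letter. The rule found 182 genes of 21887, on 20 chromosomes, with 39 genes on chromosome 7, 24 on chromosome 17 and 17 on chromosome 4. Another 212 Zfp genes carry a number below 600 and serve as the nearest comparison. ChIP-seq peaks of the Mediator subunits MED1 and MED24 were measured in E14tg2a mouse embryonic stem cells of 129SV background. All cells carried a stable cRAF-ErT2 cassette, a RAF kinase that 4-hydroxytamoxifen (4OHT) switches on to activate ERK. They had been grown in serum and LIF with 2 µM Chir99021. PD173074, which inhibits FGF receptors, replaced Chir99021 at 250 nM for the last 24 h. The 0 h libraries came from cells left untreated and the 2 h libraries from cells given 250 nM 4OHT, with clones a and b in each group. MED1 was precipitated with its own antibody and MED24 through a FLAG tag, giving 4 groups of 2 libraries. Effects of 4OHT itself, of time and of ERK cannot be told apart, since neither vehicle-treated cells nor cells lacking the cassette were analysed here.

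Mediator is a large complex that links transcription factors at enhancers and promoters to RNA polymerase II, and MED1 and MED24 are subunits of it. C2H2 zinc finger proteins bind DNA through rows of small zinc-holding fingers. Many of the genes with high Zfp numbers also encode a KRAB domain, which recruits the corepressor TRIM28 and, through it, the histone methyltransferase SETDB1, and many silence retroelements in embryonic stem cells. Such genes arise by duplication and often stand in clusters of near copies. Others in the same number range are of different kinds, such as Zfp703 and Zfp704, which act as corepressors, and Zfp706, known for a role in the self-renewal of embryonic stem cells.

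Peaks of the 4 libraries of 1 protein were merged into regions where they overlapped. A region was called in a library that had a peak in it, gained if both 2 h libraries but neither 0 h library had it, lost if the opposite held, and retained if all 4 had it. Each region went to the nearest gene span within 100 kb. Strength is given as a percentile within a library, where 100 is the strongest peak, ranked by the authors' −log10 p (MED1) or score (MED24). The lists differ in length, so a shift in percentile describes a place in the list and shows no change in binding.

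RefSeq promoter windows (GRCm38.p6, 250 bases before to 50 after a start) were found for 158 of the 182 genes, 188 windows in all. A MED1 region overlapped 141 of them (75%) and a MED24 region 137 (72.9%), where the shares over all 21263 protein-coding windows were 54.9% and 54.8%. The windows of the lower-numbered Zfp genes were higher still, at 82.9% and 83.4%. Changes at these promoters were few. MED1 was gained at 1 window, that of Zfp607a (1.23% of all windows), and lost at 3, those of Zfp808, Zfp950 and Zfp952 (0.663% of all windows). MED24 was gained at the window of Zfp976 (2.58% of all windows) and lost at that of Zfp950 (0.461% of all windows). Those 5 windows are printed because they are the promoters where a call changed. Capitals mark matches, on either strand, to 9 short motifs named after the sequences.

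Zfp607a, chromosome 7, 27860335 to 27860634, plus strand: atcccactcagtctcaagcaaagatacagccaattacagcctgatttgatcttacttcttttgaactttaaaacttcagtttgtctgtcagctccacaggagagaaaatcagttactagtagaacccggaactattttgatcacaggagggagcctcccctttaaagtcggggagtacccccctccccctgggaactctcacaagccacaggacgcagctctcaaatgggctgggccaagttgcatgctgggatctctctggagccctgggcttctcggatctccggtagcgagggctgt

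Zfp808, chromosome 13, 62129640 to 62129939, plus strand: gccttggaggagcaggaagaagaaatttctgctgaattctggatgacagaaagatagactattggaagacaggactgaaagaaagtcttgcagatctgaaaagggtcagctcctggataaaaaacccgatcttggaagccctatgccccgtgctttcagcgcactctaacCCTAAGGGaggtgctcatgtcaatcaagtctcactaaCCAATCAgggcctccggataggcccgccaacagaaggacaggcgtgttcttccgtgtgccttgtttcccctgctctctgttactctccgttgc

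Zfp950, chromosome 19, 61140791 to 61141090, minus strand: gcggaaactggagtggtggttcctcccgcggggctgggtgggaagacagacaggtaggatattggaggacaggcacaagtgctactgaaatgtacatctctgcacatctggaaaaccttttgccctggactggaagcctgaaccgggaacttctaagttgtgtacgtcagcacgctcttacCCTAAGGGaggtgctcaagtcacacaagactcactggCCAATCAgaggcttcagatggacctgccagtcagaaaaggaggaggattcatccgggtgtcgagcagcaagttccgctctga

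Zfp952, chromosome 17, 32992889 to 32993188, plus strand: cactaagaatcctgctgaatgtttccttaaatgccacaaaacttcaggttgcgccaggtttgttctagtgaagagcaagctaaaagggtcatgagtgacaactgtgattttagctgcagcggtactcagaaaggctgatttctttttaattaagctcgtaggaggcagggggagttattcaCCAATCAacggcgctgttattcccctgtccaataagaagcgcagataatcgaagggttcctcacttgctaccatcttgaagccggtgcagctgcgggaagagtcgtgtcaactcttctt

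Zfp976, chromosome 7, 42642555 to 42642854, minus strand: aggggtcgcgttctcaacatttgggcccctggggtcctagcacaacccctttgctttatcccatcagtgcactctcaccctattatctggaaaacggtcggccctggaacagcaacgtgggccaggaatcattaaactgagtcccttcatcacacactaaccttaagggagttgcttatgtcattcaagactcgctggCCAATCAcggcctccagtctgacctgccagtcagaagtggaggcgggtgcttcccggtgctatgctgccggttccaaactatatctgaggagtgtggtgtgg

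The motifs were ETS (CCGGAAGT), AP-1 (TGANTCA), NRF1 (GCATGCGC), YY1 (AAGATGGCG), E-box (CACGTG), SP (GGGGCGGG), the TATA box spelled TATAAA, an NF-Y box spelled CCAATCA and a stretch without a factor's name (CCTAAGGG). Neither strand of one motif contains another. The last 2 were added after the printed windows had been read. The Zfp808 and Zfp950 windows hold CCTAAGGG followed by CCAATCA, in that order from 5′ to 3′. The Zfp952 and Zfp976 windows hold CCAATCA alone, and the Zfp607a window holds none of the 9.

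CCAATCA, a form of the box that the factor NF-Y is known to bind, stood in 59 of 188 windows of these genes (31.4%), in 9.11% of all protein-coding windows and in 13.3% of the windows of the lower-numbered Zfp genes. CCTAAGGG stood in 18 windows (9.57%), against 1.13% of all and 0.474% of the lower-numbered Zfp genes. Near copies share such letters by descent. With 1 window a gene and the 23 genes with a near-identical partner left out, CCAATCA was in 37 of 135 genes (27.4%) and CCTAAGGG in 7 of 135 (5.2%). Windows below 80% identity stayed in, among them those of Zfp808 and Zfp950, which share further letters around CCTAAGGG. Shared descent can thus remain in these shares, and its part was not tested. The ETS motif, bound by factors that ERK is known to phosphorylate, was in 12 windows (6.38%, against 5.15% of all). TATA was in 4.79% (12.6% of all), SP in 13.8% (22.1%), AP-1 in 4.26% (6.99%), NRF1 in 4.26% (3.52%), YY1 in 1.06% (1.83%) and the E-box in 7.98% (7.84%). These shares are descriptions without a test.

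In the Zfp808 window, the MED1 region stood at percentiles 42.2 and 23.5 in clones a and b at 0 h and was called in neither 2 h library. In the Zfp950 window it stood at 28.6 and 28.5 at 0 h, and MED24 at 11.9 and 47.3, with none at 2 h. The Zfp952 region was weaker, at 14.2 and 7.90 in MED1 and without a MED24 region. Both gained regions were also low in rank: MED1 reached 12.7 and 15.6 at Zfp607a, and MED24 reached 9.90 and 31.2 at Zfp976. Every changed call at a promoter was thus below percentile 50 in each library that held it.

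Windows without any region differed from the others in letters that no call had used. The 145 windows with a region of either protein had a median of 13 CpG dinucleotides (2 to 59) and the 43 without one a median of 5 (1 to 45). SP, ETS and NRF1 matches stood in 26, 12 and 8 of the 145 windows and in 0 of the 43. CCAATCA was in 43 of the 145 (29.7%) and 16 of the 43 (37.2%), so it did not separate them. CCTAAGGG was in 10 of the 145 (6.90%) and 8 of the 43 (18.6%). TATA (5 and 4 windows) and AP-1 (5 and 3) also had larger shares in the 43. The E-box (13 and 2) and YY1 (2 and 0) had larger shares in the 145. With 1 window a gene, ETS and SP stood in 0 of the 23 genes with a near-identical partner, of which 13 had no region. The part of near copies in these shares was not tested.

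**Figure D1:**
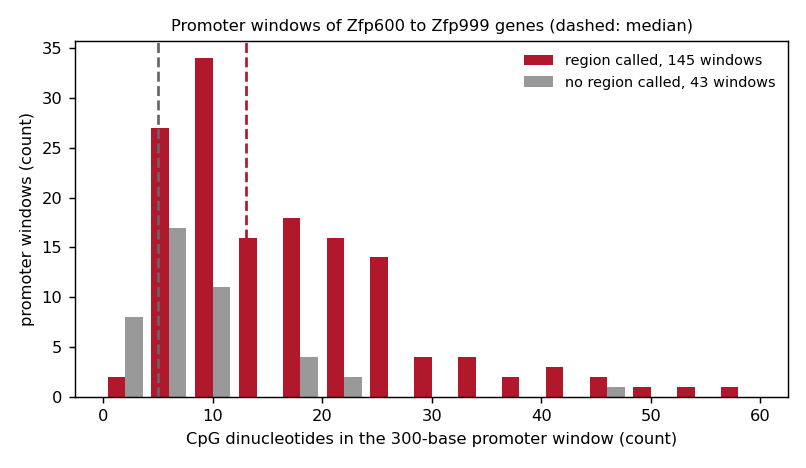
Histogram of CpG dinucleotides per 300-base promoter window (x axis, count) against the number of windows (y axis) for Zfp600 to Zfp999 genes. Red bars are the 145 windows with a MED1 or MED24 region in at least 1 library and grey bars the 43 without. Dashed lines are the medians, 13 and 5, and the 2 ranges overlap.

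Near-identical promoters were compared by global alignment of 1 window per gene. Of 12401 pairs, with a median identity of 49.6%, 33 pairs reached 80%, all within 1 chromosome. They involved 23 genes, of which 7 are on chromosome 2 and 5 on chromosome 4. Neither protein had a region at 13 of these 23 windows (56.5%), against 22 of the other 135 (16.3%). The windows of Zfp955a and Zfp955b are identical, as are those of Zfp966 and Zfp967, and no region was called at any of them. The first of each pair is printed to show what an uncalled duplicated promoter looks like, followed by Zfp747 and Zfp764, which are 86.32% identical and were both called.

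Zfp955a, chromosome 17, 33255096 to 33255395, minus strand (also Zfp955b): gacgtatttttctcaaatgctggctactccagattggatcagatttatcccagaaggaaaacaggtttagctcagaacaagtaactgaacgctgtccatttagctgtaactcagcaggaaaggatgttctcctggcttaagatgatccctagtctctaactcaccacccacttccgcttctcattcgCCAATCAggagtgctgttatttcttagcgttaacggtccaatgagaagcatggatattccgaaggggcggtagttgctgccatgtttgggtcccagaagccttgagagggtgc

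Zfp966, chromosome 2, 175931051 to 175931350, minus strand (also Zfp967): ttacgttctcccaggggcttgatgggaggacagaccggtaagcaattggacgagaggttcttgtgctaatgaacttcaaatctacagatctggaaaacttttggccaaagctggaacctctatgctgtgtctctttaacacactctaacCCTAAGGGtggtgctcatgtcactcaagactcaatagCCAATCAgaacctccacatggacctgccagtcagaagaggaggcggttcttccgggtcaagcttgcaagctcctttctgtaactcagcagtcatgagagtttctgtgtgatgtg

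Zfp747, chromosome 7, 127376001 to 127376300, minus strand: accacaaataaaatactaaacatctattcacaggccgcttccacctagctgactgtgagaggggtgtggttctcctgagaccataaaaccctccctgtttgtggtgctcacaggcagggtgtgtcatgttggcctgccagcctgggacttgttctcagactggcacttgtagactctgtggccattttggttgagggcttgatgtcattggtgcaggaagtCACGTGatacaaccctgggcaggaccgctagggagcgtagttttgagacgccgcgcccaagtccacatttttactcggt

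Zfp764, chromosome 7, 127406773 to 127407072, minus strand: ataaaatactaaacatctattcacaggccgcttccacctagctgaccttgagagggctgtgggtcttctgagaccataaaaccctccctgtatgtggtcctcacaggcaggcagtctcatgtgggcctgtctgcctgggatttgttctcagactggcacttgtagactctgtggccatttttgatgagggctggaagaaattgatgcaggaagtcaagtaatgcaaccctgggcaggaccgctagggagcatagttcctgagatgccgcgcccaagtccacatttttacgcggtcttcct

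Zfp966 carries the same CCTAAGGG and CCAATCA order as Zfp808 and Zfp950 although no region was called there in any library. The Zfp747 window had MED1 percentiles of 74.5 and 6.91 at 0 h and 22.0 and 7.73 at 2 h, so its clones differed widely. Zfp764 stood at 43.1 and 31.1 in MED1 at 0 h and was called at 2 h only in clone b, at 8.25. The MED24 regions at the Zfp747 and Zfp764 windows were both retained. A read that matches identical promoters cannot be placed in 1 of them. How such reads were treated is not given in the sources used here, and its part in the missing calls was not tested. No region in either protein was assigned to 21 of the 182 genes, among them Zfp955a, Zfp955b, Zfp965, Zfp966, Zfp967, Zfp968 and Zfp973. A MED1 region was assigned to 160 of the 182, where 72.7% of all genes had one, and a MED24 region to 156, where 73.6% did. These genes thus lacked a region of either single protein less often than all genes.

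Over all 182 genes, the number of regions called did not differ between 0 h and 2 h beyond the spread of the libraries, while the number over the genome was higher in both 2 h libraries. Of 562 MED1 regions, 63 were gained (11.2%; 17.6% of all regions), 49 lost (8.72%; 6.9% of all) and 209 retained (37.2%; 30.9% of all). Of 488 MED24 regions, 50 were gained (10.2%; 16% of all), 45 lost (9.22%; 8.83% of all) and 198 retained (40.6%; 32.6% of all). The libraries called 355 and 352 of the MED1 regions at 0 h and 339 and 362 at 2 h, in clones a and b. Their means were 353.5 ± 2.12 and 350.5 ± 16.3 (SD, n = 2), and the difference of -3 regions lay within the spread (exact permutation test, two-sided, p = 1). Regions called anywhere in the genome went in the same libraries from 36161 and 34995 to 41291 and 44811, so the share at these genes went from 0.982% and 1.01% to 0.821% and 0.808%. The groups of this share do not overlap, and 2 libraries against 2 cannot give a p below 0.333. A lower MED1 share at 2 h was not particular to these genes. For the lower-numbered Zfp genes it went from 1.31% and 1.36% to 1.23% and 1.23%, also without overlap.

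MED24 gave 333 and 299 called regions at 0 h and 306 and 350 at 2 h, and its groups overlap. The difference of 12 regions was also within the spread (exact permutation test, p = 0.667). Clone a had 27 regions fewer at 2 h and clone b 51 more, so the clones went opposite ways in number. As a share of all MED24 regions called, the 182 genes went from 0.835% and 0.82% to 0.756% and 0.741%. This share was lower at 2 h in both clones, and its groups do not overlap. The share of the lower-numbered Zfp genes was higher at 2 h, from 1.18% and 1.16% to 1.23% and 1.19%. Neither difference in share was tested. At the lower-numbered Zfp genes, 92 of 781 MED1 regions were gained (11.8%) and 35 lost (4.48%), and 88 of 723 MED24 regions gained (12.2%) and 34 lost (4.70%). Both shares of gains were below those of all regions. The lost share of the Zfp600 to Zfp999 genes was higher than that of the lower-numbered genes in both proteins, a difference that was not tested.

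Part of the changes were shared by both proteins. Of the 63 regions gained in MED1, 35 overlapped a region gained in MED24, which is 55.6% of the MED1 and 70.0% of the MED24 gains (62.0% and 67.6% of all gains). Of the lost regions, 19 of 49 in MED1 (38.8%) and 19 of 45 in MED24 (42.2%) were shared, where the shares of all losses were 44.5% and 34.3%. The shares of these genes were below those of all regions in MED1 and above them in MED24, without a test. No region was gained in one protein and lost in the other. MED1 regions overlapped a MED24 region of any state in 70.1% of cases (77.5% of all MED1 regions), and MED24 regions a MED1 region in 82.0% (78.4% of all).

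Most regions at gene ends were retained. Within 1 kb of either end of a gene span lay 160 MED1 regions, of which 105 were retained (65.6%; 62.6% for all genes), 6 gained (3.75%; 5.17%) and 11 lost (6.88%; 2.61%). For MED24 99 of 144 were retained (68.8%; 60.5% for all genes), 2 gained (1.39%; 7.66%) and 2 lost (1.39%; 2.34%). Inside the spans MED1 had 186 regions with 20 gained (10.8%; 21.5% for all genes) and 21 lost (11.3%; 7.43%). MED24 had 162 there with 21 gained (13.0%; 19.0%) and 24 lost (14.8%; 9.81%). Outside the spans MED1 had 216 with 37 gained (17.1%; 20.1%) and 17 lost (7.87%; 8.26%), and MED24 182 with 27 gained (14.8%; 17.6%) and 19 lost (10.4%; 10.6%). None of these differences from all genes was tested.

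Of the 182 genes, 94 stand in 16 clusters, here runs of at least 3 members with at most 250 kb between neighbours. This rule counts only Zfp600 to Zfp999 genes, so members of mixed clusters, such as the chromosome 2 copies Zfp965 to Zfp970, count as outside. In the clusters MED1 was gained at 17 of 270 regions (6.30%) and lost at 29 (10.7%). At the 88 genes outside clusters it was gained at 46 of 292 (15.8%) and lost at 20 (6.85%), close to the 17.6% and 6.9% of all regions. In MED24 13 of 204 regions were gained (6.37%) and 22 lost (10.8%) in clusters, and 37 (13.0%) and 23 (8.10%) of 284 outside.

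MED1 regions called in the clusters numbered 189 and 185 at 0 h and 158 and 168 at 2 h, lower by 31 regions for clone a and by 17 for clone b. Outside clusters they numbered 166 and 167 at 0 h and 181 and 194 at 2 h. Neither pair of groups overlaps, and both differences have the smallest p the design allows (exact permutation test, p = 0.333). As a share of all MED1 regions called, clusters went from 0.523% and 0.529% to 0.383% and 0.375%. Outside clusters the share went from 0.459% and 0.477% to 0.438% and 0.433%, so there the count rose while the share fell. MED24 in clusters was called at 150 and 146 regions at 0 h and 132 and 151 at 2 h (exact permutation test, p = 1), and outside at 183 and 153, then 174 and 199 (p = 0.667). Its groups of counts overlap, so the called numbers of MED24 do not separate the times. As a share of all MED24 regions called, clusters went from 0.3763% and 0.4002% to 0.3263% and 0.3195%, without overlap. Outside clusters the MED24 share went from 0.4591% and 0.4194% to 0.4301% and 0.4211%, and these groups overlap. The MED24 shares were not tested.

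The net change, gained minus lost as a percentage of regions, was lower in clusters than outside: the difference was -13.35 points in MED1 and -9.341 points in MED24, and it was not tested. With each library limited to its 10000 strongest peaks the MED24 value turned to 0.891. Clustered genes also held more MED1 regions without MED24: 62.6% of them overlapped a MED24 region, against 77.1% outside clusters, while 82.8% and 81.3% of the MED24 regions overlapped MED1.

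**Figure D2:**
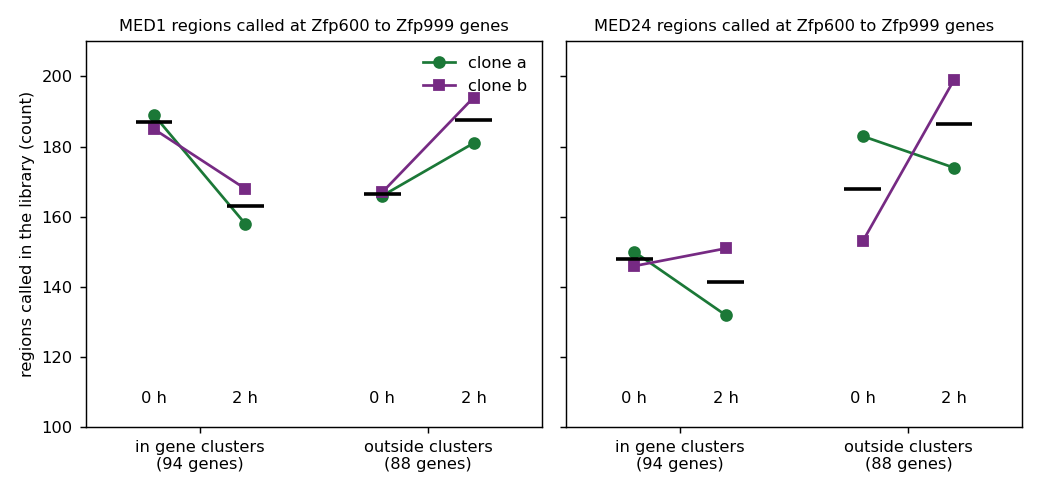
Regions called per library (y axis, count, starting at 100) at 0 h and 2 h for genes in clusters and outside them, MED1 left and MED24 right. Circles are clone a, squares clone b, lines join a clone's values and black bars are means of 2 libraries. MED1 was lower at 2 h in both clones in clusters and higher in both outside, while the MED24 clones crossed. Counts are not scaled to the longer 2 h lists.

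The clusters did not move alike. The 6-gene cluster from Zfp607b to Zfp850 on chromosome 7 (27674661 to 28014210) had 7 of 27 MED1 regions lost and 1 gained, with 19 and 20 called at 0 h and 8 and 10 at 2 h. In MED24 it had 4 of 21 lost and 0 gained, with 17 and 16 called at 0 h and 7 and 14 at 2 h. The 13-gene cluster from Zfp677 to Zfp946 on chromosome 17 (21383707 to 22456689) had 7 of 39 MED1 regions lost and 2 gained, with 28 and 26 called at 0 h and 18 and 17 at 2 h. The 0 h and 2 h counts did not overlap in either cluster in MED1. In MED24 they did not overlap in the 6-gene cluster, and the 13-gene cluster had 18 and 18, then 17 and 18. MED1 counts without overlap were not particular to these clusters. They were lower at 2 h from Zfp992 to Zfp933 (31 and 34, then 29 and 29) and higher from Zfp712 to Zfp738 (8 and 9, then 10 and 12). Of all regions, 17.6% were gained and 6.9% lost in MED1, and 16% and 8.83% in MED24.

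The 2 clusters of 5 genes were named after their values were seen. The one from Zfp936 to Zfp819 on chromosome 7 had 5 of 33 MED1 regions gained and 1 lost, with 18 and 15 called at 0 h and 22 and 23 at 2 h. In MED24 it had 2 gained and 2 lost of its 17 regions, called 12 and 10 times, then 12 and 11 times. The other, from Zfp868 to Zfp866 on chromosome 8, had 0 of 9 MED1 regions gained and 1 lost, called 7 and 9 times, then 6 and 6 times. In MED24 it had 1 of 8 gained and 0 lost, called 7 and 7, then 8 and 8 times. The 9-gene cluster from Zfp771 to Zfp646 on chromosome 7 had 0 gained and 0 lost among 17 MED1 and 15 MED24 regions, and 11 of each were retained. The 11-gene cluster from Zfp992 to Zfp933 on chromosome 4 held 51 MED1 regions, 3 of them gained and 4 lost, and 36 MED24 regions, 3 of them gained and 5 lost. The 10-gene cluster from Zfp712 to Zfp738 on chromosome 13 held only 12 regions in each protein, with 2 gained in MED1 and none lost in either. The 8-gene cluster from Zfp871 to Zfp955b on chromosome 17 held 13 MED1 regions (1 gained, 2 lost) and 16 MED24 regions (1 gained, 3 lost).

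By gene, 160 of the 182 had a MED1 region (72.7% of all genes did) and 156 a MED24 region (73.6%). Of them, 30 had more gained than lost MED1 regions (23.2% of all genes did) and 20 more lost than gained (7.81% of all genes). In MED24 these were 28 (21.6%) and 23 (10%). More lost than gained in both proteins was found for 11 genes (4.08% of all genes), 7 of them in clusters: Zfp607b, Zfp758, Zfp788, Zfp820, Zfp870, Zfp950, Zfp956, Zfp960, Zfp981, Zfp985 and Zfp987. More gained than lost in both was found for 17 genes (15.8% of all genes), 5 of them in clusters. The proteins went opposite ways at 4 genes (1.9% of all genes).

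**Figure D3:**
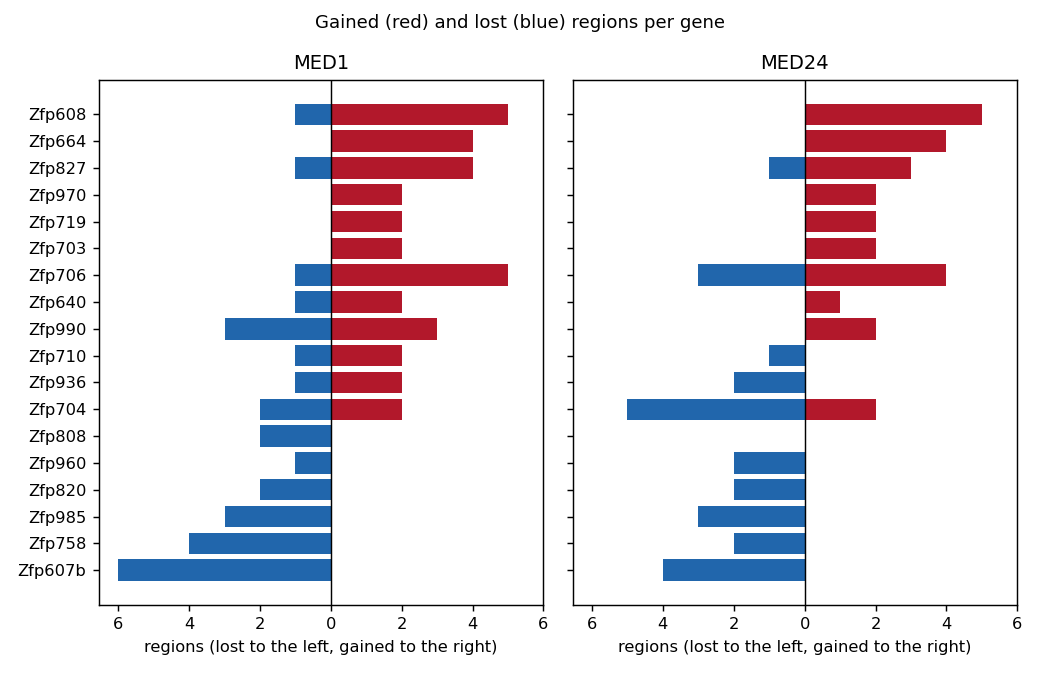
Gained (red, to the right) and lost (blue, to the left) regions per gene (x axis, count) for 18 genes among those with the most regions or changes, MED1 left and MED24 right. Zfp608 and Zfp664 at the top had 5 and 4 gained regions in each protein, and Zfp607b at the bottom 6 lost in MED1 and 4 in MED24.

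Zfp607b (chromosome 7, 27674661 to 27706484) had the most lost regions in MED1, while in MED24 Zfp704 had more, 5 against 4. Its 16 MED1 regions were called 12 and 14 times at 0 h and 2 and 3 times at 2 h, with 6 lost and 0 gained. Its 11 MED24 regions were called 11 and 9 times at 0 h and 2 and 5 times at 2 h, with 4 lost and 0 gained. Lower counts at 2 h are built into the choice of a gene by its losses.

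The strongest region lost at Zfp607b lay inside the gene (27692655 to 27693318), at MED1 percentiles 76.3 and 91.0 at 0 h, and was lost in MED24 too, from 74.9 and 64.5. Its neighbour (27693904 to 27694503) stood at 71.9 and 80.1 in MED1 and was lost, while MED24 there stood at 89.1 and 89.3 at 0 h and was called at 2 h in clone b alone, at 31.2. The region over the left end of the gene (27674181 to 27675580) was retained, at 80.7 and 5.99 at 0 h and 54.9 and 63.2 at 2 h. The lost MED1 regions lay inside the gene and at its right end.

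Zfp758 (chromosome 17, 22361430 to 22393909) was called at 9 and 8 of its 12 MED1 regions at 0 h and at 1 and 0 at 2 h, with 4 lost. In MED24 2 of its 3 regions were lost, and both coincided with lost MED1 regions. The stronger of these, 12.012 kb outside the gene (22405921 to 22406658), stood at 48.4 and 59.4 in MED1 and at 61.1 and 77.7 in MED24. Zfp985 (chromosome 4, 147553277 to 147585201) was called 4 and 5 times at 0 h and 1 and 0 times at 2 h in MED1, and 4 and 3 times, then 1 and 0 times in MED24, with 3 lost in each protein. The windows of Zfp758 and Zfp985 are near-identical to others, Zfp758 to Zfp943 at 94.81% and Zfp985 to Zfp987 at 85.08%.

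Zfp820 (chromosome 17, 21816876 to 21845759) lost 2 of 5 regions in each protein. The one 8.10 kb outside it (21853856 to 21854144) stood at 70.5 and 70.8 in MED1 and at 92.2 and 89.1 in MED24 at 0 h. At Zfp870, on the same chromosome, the region over a gene end (32878535 to 32879283) was lost from 70.7 and 74.8 in MED1 and from 88.4 and 84.3 in MED24. These were among the strongest lost regions of the 182 genes in both proteins.

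Zfp664 (chromosome 5, 124862705 to 124888630) had 4 gained and 0 lost regions in each protein. Of its 6 MED1 regions 1 and 1 were called at 0 h and 5 and 6 at 2 h, and of its 6 MED24 regions 2 and 2, then 6 and 6. A retained region 34.0 kb outside the gene (124922586 to 124924094) stood at MED1 percentiles 58.9 and 57.7 at 0 h and 98.7 and 99.0 at 2 h, the largest upward shift among the 209 retained MED1 regions by the smaller of the clones' shifts. The authors' fold enrichment of its peaks was 5.27 and 6.01 at 0 h and 23.9 and 28.1 at 2 h. MED24 there stood at 58.6 and 68.0, then at 97.9 and 98.4.

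**Figure D4:**
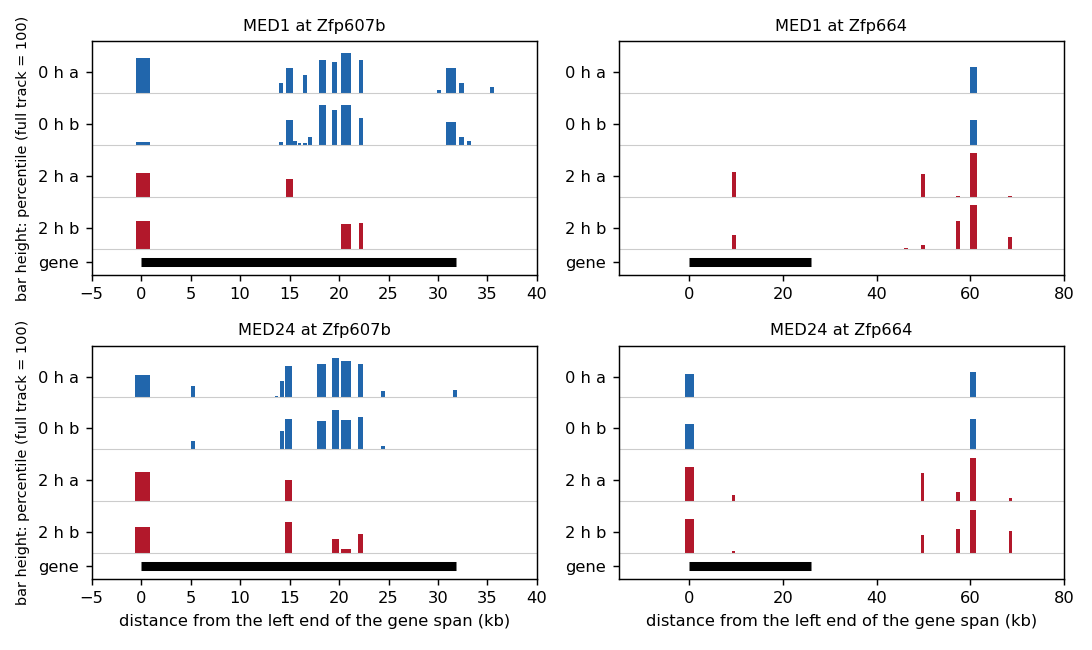
Regions at Zfp607b (left) and Zfp664 (right) in MED1 (top) and MED24 (bottom), plotted by distance from the left end of the gene span (x axis, kb). Each row is a library, blue at 0 h and red at 2 h, bar height is the percentile within that library, and the black bar is the gene. Very narrow regions are drawn wider than scale. Blue bars within Zfp607b are mostly absent at 2 h. Red bars of the regions gained at Zfp664 have no counterpart at 0 h, while the retained region 34.0 kb outside that gene has blue bars at 0 h.

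Zfp608 had the most gained regions over both proteins, 5 of 12 in MED1 with 1 lost and 5 of 13 in MED24 with 0 lost. Its MED1 regions were called 3 and 2 times at 0 h and 8 and 10 times at 2 h, and its MED24 regions 4 and 3 times, then 10 and 9 times. The strongest gain lay 26.8 kb outside the gene, at MED1 percentiles 86.5 and 89.9 and MED24 percentiles 64.6 and 81.7. A region 59.4 kb away stayed in all libraries, at 90.2, 89.2, 82.6 and 86.6 in MED1, so gained and retained regions lay side by side.

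Zfp703 (chromosome 8, 26977336 to 26981462) and Zfp719 (chromosome 7, 43579559 to 43593710) each had 2 gained and 0 lost regions in each protein. At Zfp703, MED1 was called at 2 and 2 regions, then 4 and 5, and MED24 at 3 and 2, then 5 and 6. Its gained region 1.19 kb outside the gene (26975657 to 26976150) reached 75.8 and 78.8 in MED1 and 80.5 and 82.6 in MED24. At Zfp719, MED1 was called at 1 and 1 regions, then 5 and 4, and MED24 at 1 and 1, then 3 and 3, while the region over its end was retained at percentile 79.2 or higher in all 8 libraries. Zfp970, on chromosome 2, also had 2 gained and 0 lost in each, but both lay 86.9 to 87.7 kb away and none was at its promoter. Higher counts at 2 h are built into the choice of Zfp608, Zfp664, Zfp703, Zfp719 and Zfp970 by their gains, and are a description.

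Zfp827 (chromosome 8, 79027486 to 79193768) held the best-ranked gained region in MED1, inside the gene (79150400 to 79151343). It was called only at 2 h, at percentiles 98.5 and 98.7 in MED1 and 89.7 and 94.8 in MED24. Gains in both proteins also stood inside Zfp800 (chromosome 6, 28253680 to 28254483), at 95.4 and 96.1 in MED1, and 14.3 kb from Zfp992 (chromosome 4, 146483693 to 146484504), at 96.7 and 95.7. The Zfp800, Zfp827 and Zfp992 gains were the 3 best-ranked gained regions in MED24, and in MED1 they ranked with one at Zfp706 among the best 4.

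Zfp706 (chromosome 15, 36997027 to 37007402) had changes in both directions. MED1 was called at 4 and 7 of its 15 regions at 0 h and at 10 and 9 at 2 h, with 5 gained and 1 lost. MED24 was called at 8 and 9 of 19 at 0 h and at 10 and 12 at 2 h, with 4 gained and 3 lost. A gained MED1 region 40.8 kb away (36954576 to 36956215) reached 97.2 and 98.7, while a MED24 region 34.0 kb away (36962293 to 36963076) was lost from 94.8 and 88.3, the best-ranked MED24 loss of the 182 genes.

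Zfp704 (chromosome 3, 9427010 to 9610085), with a span of 183 kb, had the most regions and little net change in MED1. Its 22 MED1 regions were called 14, 10, 13 and 12 times, with 2 gained and 2 lost, and its groups overlap. Of its 23 MED24 regions, called 16 and 15 times at 0 h and 12 and 12 times at 2 h, 2 were gained and 5 lost. Zfp710 (chromosome 7, 80024814 to 80092751) held the strongest retained region of both proteins, 8.06 kb outside the gene (80013462 to 80016753), at 98.4, 98.9, 99.6 and 99.6 in MED1 and 98.7, 99.1, 99.7 and 99.7 in MED24.

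Among genes known for silencing retroelements, Zfp809 had 4 MED1 regions with 1 gained and 2 lost, called at 3 and 3, then 2 and 2, and 3 MED24 regions with 1 gained. The region over its end was retained at 90.9, 93.0, 82.2 and 71.2 in MED1. Zfp819 had 7 MED1 regions with 1 gained, called at 2 and 2, then 4 and 6, and 4 MED24 regions, none of them gained or lost. Zfp708, which binds a retroelement family, had 1 region in each protein, retained in both. Zfp809, Zfp819 and Zfp708 thus showed no common direction. Of the other genes listed for known roles, Zfp711 and Zfp750 had no region in either protein.

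MED1 lists were longer at 2 h (43949 peaks in clone a, 47305 in clone b) than before 4OHT (38668 in clone a, 37483 in clone b). The median shift of the retained MED1 regions of these genes from 0 h to 2 h was -6.96 percentile points (clone a -10.8, clone b -2.86), against -3.24 over all retained MED1 regions, and 96 of 209 were lower in both clones (45.9%; 44.2% of all) while 33 were higher in both (15.8%; 24.3% of all). In MED24 the median shift was 0.472 points (clone a -1.59, clone b 2.04), against -0.354 over all, with 64 of 198 lower (32.3%; 36.8% of all) and 69 higher in both clones (34.8%; 34.4% of all). The MED1 shift was below 0 in each clone, with a share of lower regions near that of all, and the MED24 clones differed in sign.

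**Figure D5:**
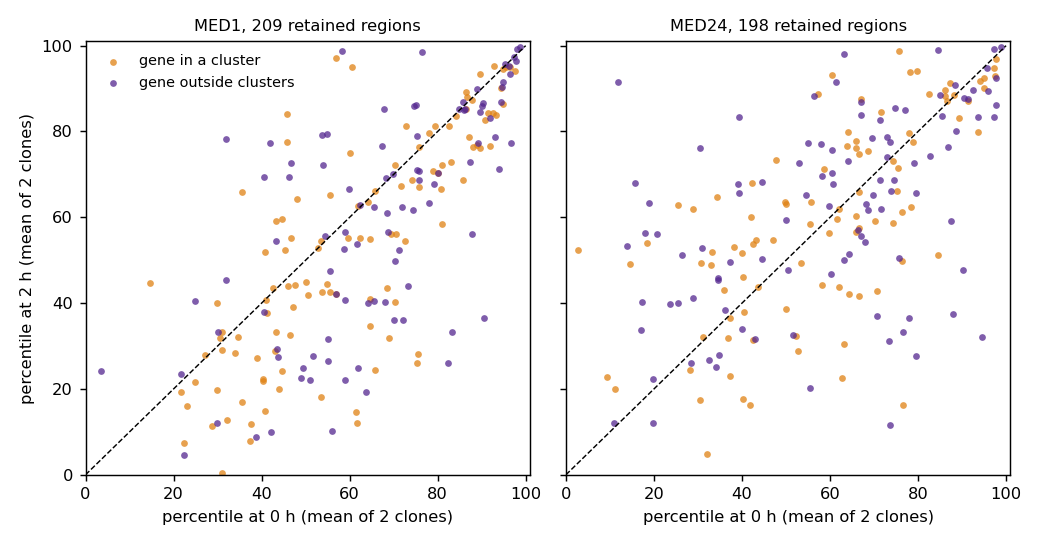
Percentile at 0 h (x axis) and 2 h (y axis), each the mean of 2 clones, for the 209 retained MED1 and 198 retained MED24 regions of Zfp600 to Zfp999 genes. Orange points belong to genes in clusters and purple points to genes outside, and the dashed line marks no shift. More MED1 points lie below the line than above it, and the MED24 points spread to both sides.

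The largest downward shift in MED1 was at a region inside Zfp605 (chromosome 5, 110122336 to 110123059), from 77.9 and 86.9 to 16.2 and 36.0. Its promoter kept regions of both proteins, at 49.0, 11.2, 34.1 and 32.5 in MED1 and 43.4, 45.6, 46.0 and 54.7 in MED24. That window is printed as the example of an ETS match among the genes named here, with the match in capitals.

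Zfp605, chromosome 5, 110109842 to 110110141, plus strand: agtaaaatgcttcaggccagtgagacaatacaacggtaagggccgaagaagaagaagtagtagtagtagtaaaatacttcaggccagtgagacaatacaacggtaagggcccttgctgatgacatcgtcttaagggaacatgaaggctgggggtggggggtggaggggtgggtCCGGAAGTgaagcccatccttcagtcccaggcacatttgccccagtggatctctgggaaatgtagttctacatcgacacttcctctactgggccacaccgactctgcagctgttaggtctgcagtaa

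In MED1 the retained region inside Zfp961 (chromosome 8, 71952213 to 71953657) moved from percentiles 46.8 and 44.6 to 86.0 and 82.0, and one inside Zfp786 (chromosome 6, 47824010 to 47824754) from 66.6 and 54.5 to 95.8 and 94.3. Both genes stand in clusters. In MED24 the largest upward shift was inside Zfp654 (chromosome 16, 64796502 to 64797121), from 5.34 and 18.2 to 92.4 and 90.6, at a place where MED1 was gained. The largest downward MED24 shift was 5.37 kb from Zfp934 (chromosome 13, 62510416 to 62511422), from 94.2 and 95.0 to 28.0 and 36.4. At the end of Zfp947 (chromosome 17, 22165652 to 22166351) MED24 moved from 79.8 and 73.5 to 8.78 and 24.0.

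A list of 25 genes, all with regions, held partners through which KRAB proteins are known to act and genes of the same silencing pathway. Zfp57, Zfp568, Zfp42 and Yy1 are among the 25. In MED1 20 of the 163 regions of the list were gained (12.3%; 17.6% of all regions) and 15 lost (9.20%; 6.9% of all), with 9 genes more gained (23.2% of all genes) and 9 more lost (7.81% of all genes). In MED24 18 of 154 were gained (11.7%; 16% of all) and 9 lost (5.84%; 8.83% of all), with 8 genes more gained (21.6%) and 5 more lost (10%). Zfp42, also counted below as an embryonic stem cell marker, held 5 of the gains in each protein. Trim28, the central corepressor, had 4 MED1 regions called at 3 and 3 at 0 h and 1 and 1 at 2 h, with 1 lost, and 2 MED24 regions without a change. Setdb1, which methylates histone H3 at silenced repeats, had 1 of 4 lost in MED1 and none in MED24. Atrx, a chromatin remodeller, had 3 of 10 gained in MED1, called at 3 and 3, then 7 and 9, and 1 of 8 gained in MED24.

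All 10 embryonic stem cell markers had regions in both proteins, where 72.7% (MED1) and 73.6% (MED24) of all genes did. MED1 calls over the list were 89 and 94 at 0 h and 68 and 72 at 2 h, and MED24 calls 89 and 90, then 75 and 86. In MED1 9.02% of the list's regions were gained (17.6% of all) and 16.5% lost (6.9% of all). In MED24 9.85% were gained (16% of all) and 17.4% lost (8.83% of all). Of 10 fibroblast markers 9 had a MED1 and 8 a MED24 region, with 15 to 20 calls per library over the list, and Postn had none. Of the 31 regions of that list in each protein, 22.6% were gained and 6.45% lost in MED1, and 12.9% and 9.68% in MED24. All 5 primitive endoderm markers had regions, 13 in each protein, with 0 gained and 0 lost in MED1 and 1 gained and 2 lost in MED24. Peaks per library ranged from 37483 to 48931, and the depth behind them is unknown because read numbers are not part of a peak list.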

How the data were processed

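The study holds 12 samples, of which 8 have peak lists and 4 are inputs not analysed here; groups came from the titles. The members and gene lists were chosen with earlier results of these data known, and the promoter windows, motifs, 80% identity threshold, cluster contrast and printed sequences after values had been seen. Genes and regions are named by a rule: per protein the 8 genes with the most regions, gains and losses and the 4 best-ranked or most shifted regions of each kind; over both proteins, genes with at least 2 changes in 1 direction, the 6 largest clusters (the 5-gene ones were added after their values were seen) and a list of genes with known roles. Members were grouped by cluster, position, promoter state and near-identity; a planned grouping by KRAB box and finger number was not analysed here, for want of protein sequences.

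Per the submitters' processing notes, Bowtie2, MACS2, bedtools and mm10 were used, and each library was deposited with its own peaks. Settings, the handling of reads that match several places and any use of the inputs: not given in the sources used here. A deposited MED1 list gives for each peak the authors' score, their fold enrichment (a ratio), −log10 p and −log10 q. A deposited MED24 list gives only the authors' score. For MED1 this score equalled 10 times the −log10 q, without decimals, for 100% of the peaks. The scale of the MED24 score is not stated, and its peak names carry FLAG and the name of another cofactor, EP300, although the labels say MED24. These values served to rank and filter peaks of the same list.

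Peaks overlapping by at least 1 bp were merged per protein and assigned to the nearest RefSeq gene span within 100 kb. Depth is unknown, no test was made per region, and counts per library were compared by two-sided exact permutation tests, in which 2 libraries against 2 cannot go below p = 0.333. Nothing in the labels says that clones were separate experiments, so p-values measure the spread between these libraries. Clones pair the samples, since the labels give a and b as the same lines at both times; the clone differences of the proteins' retained regions correlated at r = -0.0059 (MED1) and -0.0076 (MED24) over regions. The assignment was tested on simulated peaks. Python 3.11.15, numpy 2.4.6, pandas 2.3.3, scipy 1.17.1 and Biopython were used.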

Additional observations from a re-analysis of the deposited data

How the results depend on the processing

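MED1 gains (63) and losses (49) became 44 and 30 at a score of at least 100, 17 and 23 with the 10000 strongest peaks per library, and 32 and 48 with 20000. Only regions on the gene span gave 25 and 30. MED24 gains (50) and losses (45) became 43 and 27, 17 and 20, 26 and 44, and 22 and 26 under the same settings, and 33 gains within 20 kb. With the clone as a replicate block, the mean count per clone was 115 gained and 118 lost in MED1 and 102.5 and 90.5 in MED24; pairing left the differences in called regions at -3 and 12. Leaving out 1 library gave 69 to 108 gained and 62 to 98 lost in MED1, and 60 to 96 and 48 to 87 in MED24; gains moved by over 1.5 times without either 2 h library, MED1 losses without either 0 h library and MED24 losses without clone b at 0 h, since 1 library fewer then has to hold or lack a region.

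The MED1 net change in clusters minus outside (-13.35 points) kept its sign in every alternative run: -11.44 with 20000 peaks, -8.469 within 20 kb, -9.102 on spans only, -11.54 with windows at the summit or centre, -16.08 with the replicate block, and -17.21 to -15.17 without 1 library. Chosen after seeing the data, clusters of at least 2 members gave -15.32, leaving out genes with a near-identical promoter -11.38, and leaving out the cluster with the most losses -11.93. The MED24 contrast (-9.341) reversed to 0.891 with 10000 peaks; its other settings ran from -14.53 to -4.122.

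The difference in called MED1 regions (-3) reversed to 4.5 at a score of at least 100 and ran from -14.5 to 8.5 without 1 library, the last without clone a at 2 h. That of MED24 (12) reversed to -5.5 with 10000 peaks and ran from -10 to 34, below 0 without clone b at 0 h (-5) or at 2 h (-10). The MED24 rank shift (0.472) reversed to -1.594 without clone b and was 2.042 without clone a. The cause of these shifts was not tested. Counting a region for every gene span at the smallest distance, an alternative chosen after seeing the data, left all gained and lost counts as they were.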
